A study of Mus musculus with 24 samples.

Results

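Slc1a2, Slc1a3, Slc6a11, Glul, Kcnj10, Aqp4, Gja1 and Gjb6 are genes of astrocyte uptake, buffering and coupling. They were taken by name, as 8 of 33902 gene symbols in a single-nucleus RNA sequencing (snRNA-seq) count table, and read in 13 of its 17 cell types. Nuclei came from microdissected ventral hippocampus of adult male mice of the inbred strains C57BL/6J (B6) and DBA/2J (D2), 10 to 16 weeks old, and D2 is named DBA in the labels. Each strain had 2 snRNA-seq and 2 single-nucleus chromatin accessibility (snATAC-seq) libraries, and a library pooled tissue of about 2 animals. RNA nuclei were sorted on the neuronal antigen NeuN to enrich neurons, so shares of nuclei are not tissue proportions. The accessibility nuclei were not sorted on NeuN. P-values of the strain tests within a cell type measure the spread between pools of animals. Fewer nuclei holding an RNA and less of it per nucleus cannot be told apart in counts summed over the nuclei of a type. Libraries are named by the numbers 2 and 3 that the columns carry, and values are given in that order.

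Astrocytes take up the glutamate and GABA that neurons release, convert glutamate to glutamine, and clear potassium from the extracellular space. Slc1a2 and Slc1a3 encode the main astrocyte glutamate transporters, Slc6a11 encodes a GABA transporter, and Glul encodes glutamine synthetase. Kcnj10 encodes an inwardly rectifying potassium channel, and Aqp4 a water channel concentrated at astrocyte endfeet. Gja1 and Gjb6 encode connexins that form gap junctions between astrocytes.

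For RNA, the counts of all nuclei of 1 cell type and library were added up and scaled to the same total in every such sum (CPM). The astrocyte sums (NN-Astro) held 973 to 1196 nuclei and 3073066 to 3606015 counts, and the other sums held 76 to 1489 nuclei and 222005 to 11267878 counts. The astrocyte label fitted its markers, since 13 astrocyte marker genes summed to between 18033 and 22659 CPM there and to at most 6473 CPM in any other sum. S100b was highest in NN-ODC. Markers of oligodendrocytes (Mog), their precursors (Vcan), microglia (C1qa) and vascular and leptomeningeal cells (Dcn, Flt1) were highest in NN-ODC, NN-OPC, NN-MGC and NN-VLMC respectively. NN-VLMC also carried the astrocyte markers, at a median of 15.7% of their astrocyte level and from 6.36% to 163% for single markers.

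The first question was how far each gene was restricted to astrocytes. The levels are a description without a test, because the cell types were clustered on the same counts, and they are compared within a gene and not between genes. The 13 types read were labelled non-neuronal (NN) or excitatory (Exc), and none was an inhibitory neuron type. Ranks and shares are over these 13 types only. By the mean of 4 libraries astrocytes were the highest of them for 7 of the 8 genes, the exception being Gjb6. For Kcnj10 this did not hold in B6, where NN-ODC was higher in both libraries. Astrocytes made up 16.0% of nuclei and 7.56% of counts, and held from 51.2% ± 12.8 of the counts of Kcnj10 to 82.5% ± 3.11 of those of Gja1 (SD, n = 4 libraries).

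**Figure D1:**
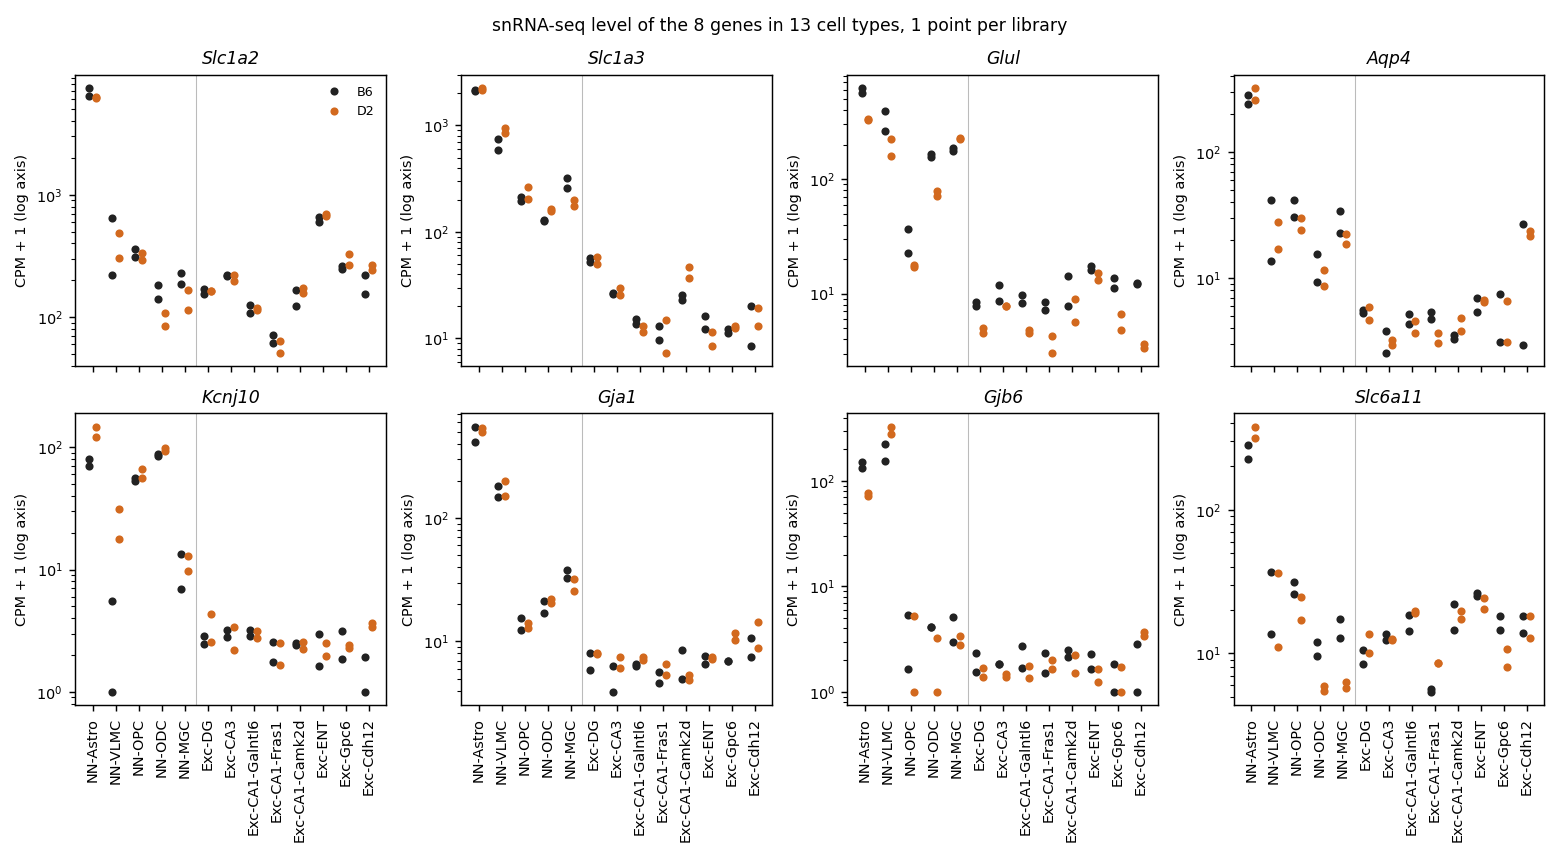
Level of each gene in 13 cell types, as CPM + 1 on a log axis, with 1 point for each library (black B6, orange D2) and non-neuronal types left of the grey line. Gjb6 is highest in NN-VLMC, and the Kcnj10 points of NN-ODC lie within the range of the astrocyte points.

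Of the transporters, Slc1a2 stood at 6554 ± 602 CPM in astrocytes (SD, n = 4, as for all levels below) and at 652 ± 37.8 CPM in the excitatory neuron type Exc-ENT, the next highest. The ranges of these types did not overlap, whereas Exc-ENT overlapped NN-VLMC, the third in order. Slc1a3 stood at 2168 ± 71.3 CPM in astrocytes, 786 ± 152 CPM in NN-VLMC and 237 ± 63.8 CPM in NN-MGC, 3 ranges apart from each other. Slc6a11 stood at 299.9 ± 63.7 CPM in astrocytes. NN-OPC, NN-VLMC and Exc-ENT followed for Slc6a11 at 23.7, 23.6 and 23.0 CPM, with overlapping ranges.

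Glul, the recycling enzyme, was spread over the non-neuronal types. It stood at 463 ± 157 CPM in astrocytes, 259 ± 98.8 CPM in NN-VLMC, 203 ± 27.0 CPM in NN-MGC and 117 ± 49.8 CPM in NN-ODC. The ranges of astrocytes and NN-VLMC overlapped, as did those of NN-VLMC and NN-MGC, and NN-ODC lay below NN-MGC in every library. In each of these types the B6 and D2 libraries did not overlap, and D2 was lower except in NN-MGC, where it was higher.

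Of the buffering genes, Aqp4 stood at 276 ± 35.8 CPM in astrocytes and 30.7 ± 7.35 CPM in NN-OPC, the next type, without overlap. Kcnj10 was also found in the oligodendrocyte lineage, at 104 ± 36.0 CPM in astrocytes, 56.7 ± 6.18 CPM in NN-OPC and between 83.3 and 98.0 CPM in the 4 libraries of NN-ODC. The astrocyte libraries spanned 69.3 to 146 CPM and took in the whole NN-ODC range. In B6 NN-ODC was the higher, at 87.4 against 69.3 CPM and 83.3 against 79.0 CPM, and in D2 astrocytes were. In NN-VLMC Kcnj10 rested on 23 counts over the 4 libraries.

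The connexins differed in NN-VLMC. Gja1 stood at 498 ± 63.3 CPM in astrocytes, 169 ± 25.4 CPM in NN-VLMC and 31.0 ± 5.03 CPM in NN-MGC, without overlap. Gjb6 stood at 246 ± 74.3 CPM in NN-VLMC and 107 ± 39.9 CPM in astrocytes, and NN-VLMC was higher in each of the 4 libraries. No other type exceeded a mean of 2.55 CPM for Gjb6. Over all counts of Gjb6, 72.3% were in astrocytes and 19.6% in the small NN-VLMC type. With counts per nucleus, where every cell type weighs the same whatever its number of nuclei, the astrocyte share of Gjb6 was 28.2%. Gjb6 in NN-VLMC was at 229% of its astrocyte level. The astrocyte markers there had a median of 15.7% and ran from 6.36% to 163%. The part of astrocyte RNA in the NN-VLMC values was not tested.

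In the 8 excitatory types most genes stood at a few percent of their astrocyte level. Medians over libraries lay between 0.320% (Gjb6 in Exc-Gpc6) and 3.32% (Glul in Exc-ENT) for Slc1a3, Glul, Kcnj10, Gja1 and Gjb6. Slc1a2 reached 10.1% and Slc6a11 7.33% in Exc-ENT, and Aqp4 7.49% in Exc-Cdh12. Aqp4 in Exc-Cdh12 stood at 1.92 and 25.8 CPM in B6 and 20.5 and 22.7 CPM in D2, so 1 library stood apart. In the same types the 13 astrocyte markers had medians between 1.26% and 2.83% of their astrocyte level. Single markers reached more, with S100b at 49.0% in Exc-ENT and 19.3% in Exc-Cdh12. The part of free astrocyte RNA in the neuronal values was not tested.

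Other genes had much the same profile over cell types. Among 3580 genes of at least 50 CPM in astrocytes, the 10 with the profile of log2(CPM + 1) closest to the mean profile of the 8 genes were Mt2, Appl2, Sdc4, Ndrg2, Aldoc, Mfge8, Clu, Gfap, Btbd17 and Mt1. Pearson's r ran from 0.981 for Mt2 to 0.968 for Mt1 over 13 cell types, which share libraries and depth. Of the 8 genes themselves Gja1 was closest (r = 0.972) and Slc6a11 farthest (r = 0.760).

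Chromatin accessibility at the 8 genes was then read from snATAC-seq counts in peaks. Nuclei were labelled from the RNA data through accessibility, so differences between cell types are again a description. The astrocyte sums were small, with 33 to 65 nuclei and 350988 to 748227 counts per library. There were 94 peaks in the genes or the 2 kb on either side, and 62 of them were higher in astrocytes than in each of 8 excitatory types. The share of all peaks that were so was not counted, and no other non-neuronal type was read for accessibility. Some of the 62 rested on few astrocyte counts, down to 2 in a peak of Slc6a11. Summed over the peaks of a gene, astrocyte accessibility was 5.30 times that of the highest excitatory type for Aqp4, 4.97 times for Gjb6, 4.39 times for Kcnj10 and 4.03 times for Glul. The lowest ratios were 2.05 for Slc1a2 and 2.03 for Slc6a11.

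**Figure D2:**
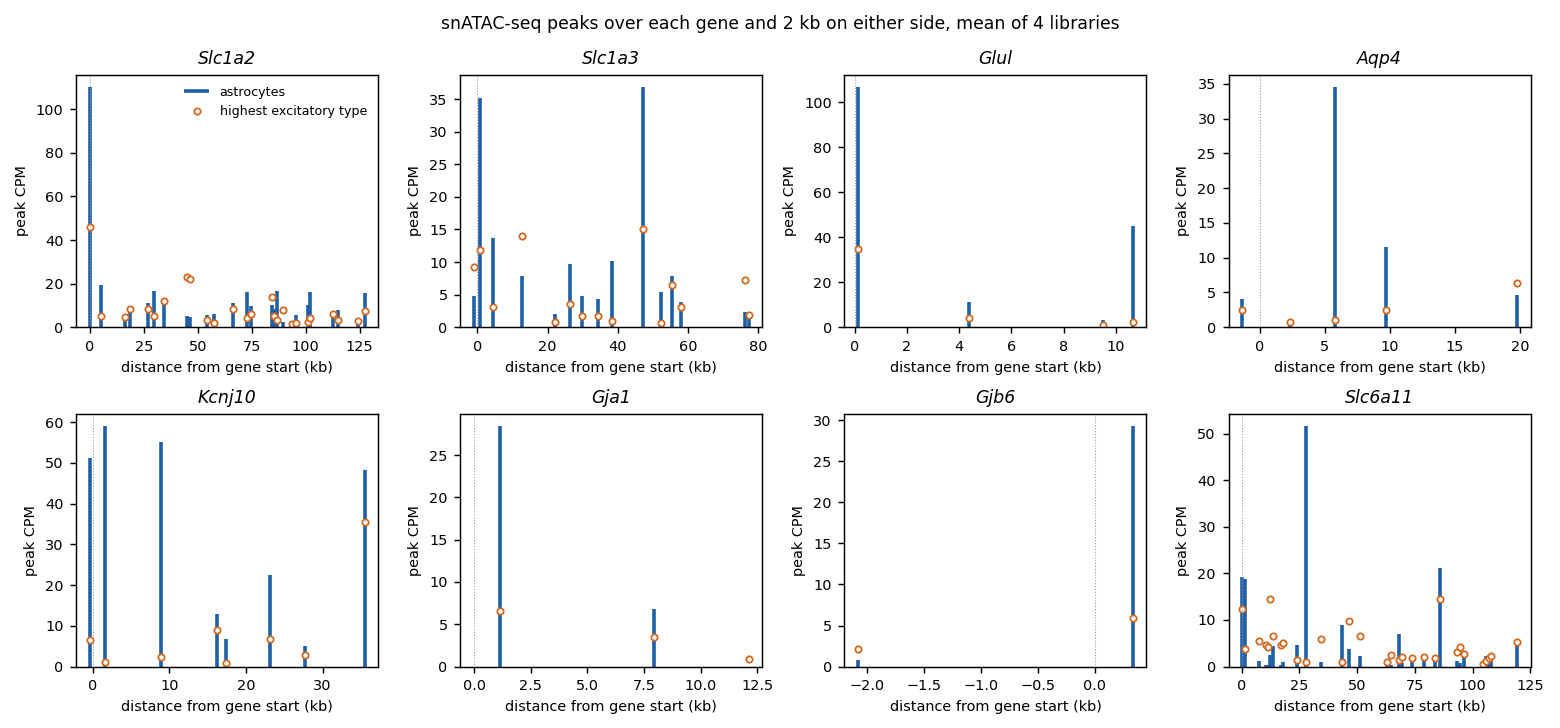
Mean accessibility of each peak in astrocytes (blue lines, CPM, 4 libraries) and in the highest of 8 excitatory types (open circles), by distance of the peak centre from the annotated gene start in kb. Kcnj10, Aqp4 and Slc6a11 have peaks inside the gene that reach 34.6 to 59.1 CPM in astrocytes and at most 2.44 CPM in any excitatory type.

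Every gene had a peak over the 1 kb on either side of its annotated start. Those of Slc1a2 and Glul stood at 110.4 and 107 CPM in astrocytes and at up to 46.2 and 34.7 CPM in excitatory types. The start peak of Kcnj10 stood at 51.2 CPM against at most 6.51 CPM, that of Gjb6 at 29.3 against 5.87 CPM, and that of Slc6a11 at 19.3 against 12.4 CPM. At Aqp4 the start peak held 9 astrocyte counts.

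In GENCODE vM21 on mm10, Glul spans chr1:153899944-153909723, Kcnj10 chr1:172341210-172374085, Slc1a2 chr2:102658659-102790784, Slc6a11 chr6:114131241-114249952 and Gja1 chr10:56377330-56402513 on the plus strand, and Gjb6 chr14:57123303-57133611 and Slc1a3 chr15:8634124-8710764 on the minus strand. The promoters of the 4 genes that differed between strains in astrocytes are shown, because a peak overlapped each. They are RefSeq windows of GRCm38.p6 from 250 bases before to 50 after the gene start, 5′ to 3′ on the strand of the gene, at chr1:153899679-153899978 (Glul, plus), chr1:172340960-172341259 (Kcnj10, plus), chr14:57133562-57133861 (Gjb6, minus) and chr6:114130991-114131290 (Slc6a11, plus). Capitals mark matches on either strand to the motifs searched. The core of nuclear factor I sites was searched as TGGCA. The core of Sox factor sites was searched as ACAAT, and the TATA box as TATAAA.
Glul promoter: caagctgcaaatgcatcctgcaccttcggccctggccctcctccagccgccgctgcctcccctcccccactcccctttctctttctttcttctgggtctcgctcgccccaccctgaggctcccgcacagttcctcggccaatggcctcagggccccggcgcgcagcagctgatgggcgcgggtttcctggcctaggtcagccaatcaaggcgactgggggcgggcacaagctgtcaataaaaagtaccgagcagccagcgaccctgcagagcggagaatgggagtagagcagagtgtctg
Kcnj10 promoter: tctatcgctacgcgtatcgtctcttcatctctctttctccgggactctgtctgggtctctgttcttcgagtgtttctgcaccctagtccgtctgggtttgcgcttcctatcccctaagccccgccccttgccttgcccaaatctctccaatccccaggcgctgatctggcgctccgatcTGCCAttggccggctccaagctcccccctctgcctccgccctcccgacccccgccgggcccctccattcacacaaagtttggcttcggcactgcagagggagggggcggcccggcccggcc
Gjb6 promoter: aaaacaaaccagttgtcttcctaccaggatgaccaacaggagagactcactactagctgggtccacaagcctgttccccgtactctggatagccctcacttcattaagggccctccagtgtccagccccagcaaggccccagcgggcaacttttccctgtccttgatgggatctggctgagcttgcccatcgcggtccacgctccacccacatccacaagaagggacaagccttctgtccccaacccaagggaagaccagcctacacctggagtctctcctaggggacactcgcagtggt
Slc6a11 promoter: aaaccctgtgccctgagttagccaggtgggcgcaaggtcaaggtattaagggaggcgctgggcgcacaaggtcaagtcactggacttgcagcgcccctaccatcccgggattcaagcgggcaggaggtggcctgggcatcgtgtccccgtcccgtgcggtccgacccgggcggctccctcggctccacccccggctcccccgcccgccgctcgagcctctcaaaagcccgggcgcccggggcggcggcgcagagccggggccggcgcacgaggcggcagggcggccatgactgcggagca
The windows held 32 CG dinucleotides for Slc6a11, 21 for Kcnj10, 17 for Glul and 6 for Gjb6, beside a median of 7 over 32851 RefSeq windows. Of 7 genes matched in that table, 1 window held TGGCA (Kcnj10) and 1 held ACAAT and TATAAA (Slc1a3). The Slc1a2 window, at chr2:102706188-102706487, lies inside the annotated gene, away from its start peak, and no peak overlapped it. Of all windows 48.9% held TGGCA, 31% ACAAT and 13.6% TATAAA.

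Inside the genes, 4 peaks had at least 50 astrocyte counts and at least 20 times the CPM of the highest excitatory type, a rule set after the values were seen. They were 2 peaks in introns of Kcnj10, 1 in Slc6a11 and 1 in Aqp4. The central 200 bases of 3 of them, those in genes that differed between strains, are shown on the plus strand of GRCm38, with TGGCA and ACAAT on either strand in capitals. They lie at chr1:172342764-172342963, chr1:172350067-172350266 and chr6:114158961-114159160, with 139, 129 and 116 astrocyte counts and ratios of 49.4, 22.5 and 49.6.
Kcnj10, 1.7 kb from the start: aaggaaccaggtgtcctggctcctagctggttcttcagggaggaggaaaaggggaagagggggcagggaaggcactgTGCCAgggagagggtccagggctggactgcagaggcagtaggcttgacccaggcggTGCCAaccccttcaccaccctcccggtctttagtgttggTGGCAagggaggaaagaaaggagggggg
Kcnj10, 9.0 kb from the start: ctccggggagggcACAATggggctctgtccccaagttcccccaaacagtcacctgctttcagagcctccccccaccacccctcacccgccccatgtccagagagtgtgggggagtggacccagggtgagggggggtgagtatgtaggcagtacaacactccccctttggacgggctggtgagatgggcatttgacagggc
Slc6a11, 27.8 kb from the start: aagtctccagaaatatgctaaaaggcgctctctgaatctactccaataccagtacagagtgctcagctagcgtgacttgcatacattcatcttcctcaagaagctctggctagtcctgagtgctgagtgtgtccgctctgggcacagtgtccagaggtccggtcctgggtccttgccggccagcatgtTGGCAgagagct
TGGCA was found 3 times in the first and 1 time in the last, and ACAAT 1 time in the Kcnj10 peak at 9.0 kb. Over 39346 astrocyte peaks with at least 10 counts, 44.4% of the windows held TGGCA and 19.9% ACAAT.

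The strains were compared in astrocytes next. Glul and Gjb6 were lower in D2, Kcnj10 and Slc6a11 were higher, and Slc1a2, Slc1a3, Aqp4 and Gja1 did not pass the test. The test was edgeR's quasi-likelihood test with Benjamini-Hochberg adjustment over 13777 genes at 0.05, and fold changes are log2 of D2 over B6 with their SE. It called 18.7% of all genes, 8.16% as higher and 10.6% as lower in D2. The 8 genes had 4 calls, 2 in each direction, and a median log2 fold change of 0.12 beside 0.00 over all genes tested. Overlap of the strains is given below as a description, and its share over all genes was not counted.

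**Figure D3:**
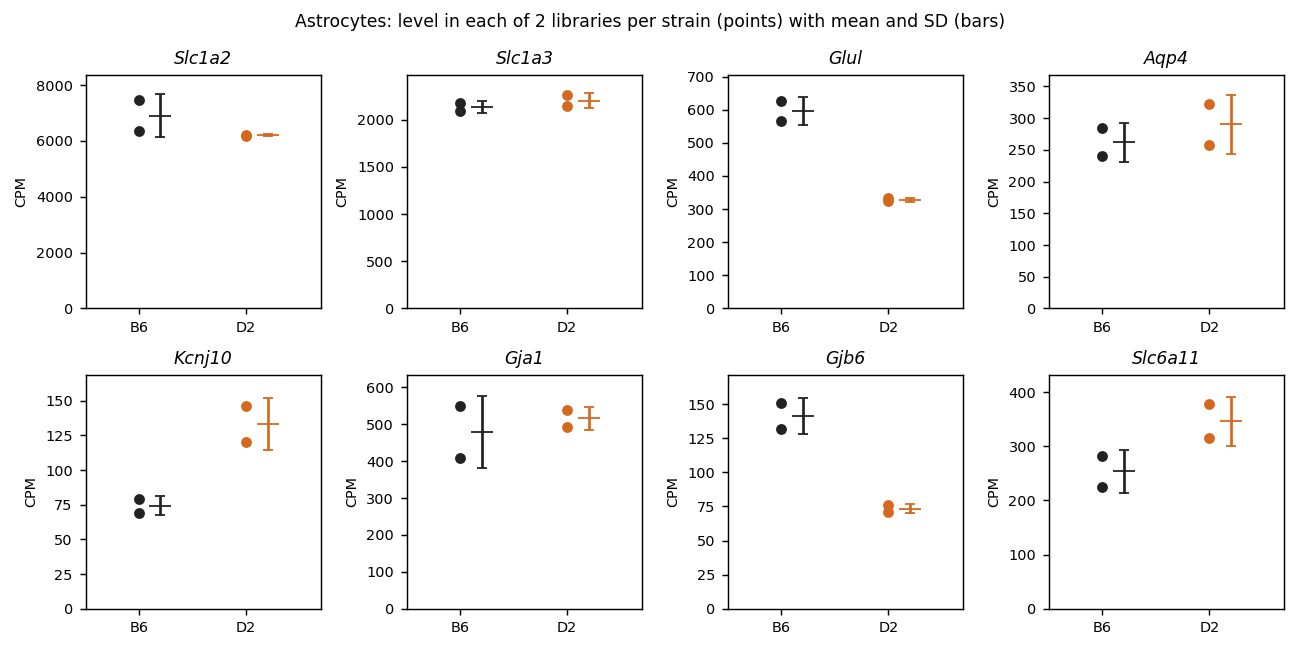
Astrocyte level of each gene in the libraries of each strain (points, CPM, axis from 0), with the mean and SD. The strains stand apart for Glul, Gjb6, Kcnj10 and Slc6a11, and also for Slc1a2 by a small margin, and they overlap for Slc1a3, Aqp4 and Gja1. The share of all genes whose strains stand apart was not counted.

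Glul stood at 626 and 568 CPM in B6 and 324 and 332 CPM in D2. Both D2 libraries lay below both B6 libraries (log2 fold change −0.81 ± 0.09, adjusted p = 2.17e-07). Gjb6 stood at 151 and 132 CPM in B6 and 70.9 and 76.0 CPM in D2, again without overlap (−0.89 ± 0.12, adjusted p = 2.05e-06).

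Kcnj10 moved in the other direction, at 69.3 and 79.0 CPM in B6 and 119.9 and 146 CPM in D2, and both D2 libraries were the higher (0.89 ± 0.12, adjusted p = 4.36e-06). Slc6a11, the GABA transporter, stood at 282 and 225 CPM in B6 and 315 and 378 CPM in D2. The strains did not overlap (0.50 ± 0.11, adjusted p = 0.00183), but without D2 library 3 the call was lost (0.36, adjusted p = 0.0933).

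The glutamate transporters did not pass. Slc1a2 stood at 7450.2 and 6354 CPM in B6 and 6226 and 6184 CPM in D2, with D2 below B6 in both libraries and a log2 fold change of −0.11 (95% interval −0.27 to 0.06, adjusted p = 0.431). Slc1a3 stood at 2176 and 2089 CPM in B6 and 2146 and 2260.4 CPM in D2, which overlapped (interval −0.07 to 0.26, adjusted p = 0.483). Slc1a2 did pass without B6 library 3, at −0.23 (adjusted p = 9.84e-04), and changed sign without B6 library 2.

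Aqp4 stood at 284 and 240.4 CPM in B6 and 258 and 323 CPM in D2 (interval −0.02 to 0.41, adjusted p = 0.246), and Gja1 at 549 and 409.9 CPM in B6 and 494 and 539 CPM in D2 (interval −0.06 to 0.37, adjusted p = 0.368). For both the strains overlapped. Both passed as higher in D2 without B6 library 2, at 0.33 for Aqp4 (adjusted p = 0.0157) and 0.40 for Gja1 (adjusted p = 6.22e-04), and Gja1 changed sign without B6 library 3.

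RNA of other cell types moved with strain in the astrocyte sums. Of all genes tested there, 8.16% were called as higher and 10.6% as lower in D2. All 5 oligodendrocyte markers were lower in D2, where they summed to 165 and 143 CPM against 369 and 341 CPM in B6. Of 6 neuronal markers 3 were lower, with sums of 307 and 215 CPM in D2 and 349 and 415 CPM in B6. NN-ODC held 844 and 972 nuclei in B6 and 535 and 510 in D2. Of 13 astrocyte markers 4 were higher in D2 and 2, Gfap and Aldoc, were lower, with sums of 21459 and 18033 CPM in B6 and 21072 and 22659 CPM in D2. Of the other lists, 1 of 3 precursor markers and 1 of 5 tested vascular and leptomeningeal markers were higher, and 1 of 4 microglial markers and the 1 tested ependymal and choroid plexus marker (Ttr) were lower. Glul in NN-ODC was below Glul in astrocytes in every library, and the part of these cells' RNA in the strain differences was not tested.

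Some of the genes overlap others, whose reads may be counted to either. Gm13872 lies antisense in Slc1a2 and had 942 to 1055 counts per astrocyte library. Gm37310 in Slc1a3 and Gm8132, opposite to Slc6a11, had 0 counts in both B6 libraries and 100 to 122 in each D2 library. In the same D2 libraries Slc1a3 had 7320 and 8151 counts and Slc6a11 had 1073 and 1363. The strains may have been counted with different gene lists, and the part of this in the strain differences was not tested. Teddm2, opposite to Glul, had 11 to 23 counts.

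Related genes of the same pathways were read from lists. Of all genes tested in astrocytes, 8.16% were called as higher and 10.6% as lower in D2. Of 20 genes of amino acid uptake and recycling, 16 could be tested, 5 were higher and 2 lower in D2, and the median log2 fold change was 0.08. The neutral amino acid transporters Slc1a4 (0.59 ± 0.12) and Slc7a10 (0.53 ± 0.10) and the glutamine transporters Slc38a3 (0.58 ± 0.14) and Slc38a2 (0.54 ± 0.14) were higher. Slc38a1, also a glutamine transporter, was lower (−1.12 ± 0.17). Slc7a11, the cystine and glutamate exchanger, was lower as well, at 559.7 and 469 CPM in B6 and 326 and 320.0 CPM in D2 (−0.62 ± 0.10).

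Of 22 genes of potassium, water and ion buffering, 20 could be tested, 7 were higher and 2 lower, with a median of 0.17. The shares over all genes were again 8.16% higher and 10.6% lower. Kcnj16, whose product forms channels with that of Kcnj10, was higher, at 60.2 and 57.9 CPM in B6 and 80.3 and 87.1 CPM in D2 (0.55 ± 0.13, adjusted p = 0.00201). The water and glycerol channel Aqp9 (0.55 ± 0.15), dystrophin (Dmd, 0.35 ± 0.09), the sodium pump subunit Atp1b2 (0.33 ± 0.12) and the bicarbonate transporter Slc4a4 (0.32 ± 0.09) were higher too. The sodium pump subunit Atp1b1 (−0.70 ± 0.11) and the chloride channel Clcn2 (−0.50 ± 0.15) were lower.

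Of 13 genes of gap junctions and coupling, 4 could be tested and 1 was called. It was Tjp1, a scaffold protein of cell junctions, at 453 and 446 CPM in B6 and 188 and 189 CPM in D2 (−1.21 ± 0.10, adjusted p = 2.38e-10). The median of the 4 was −0.76.

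**Figure D4:**
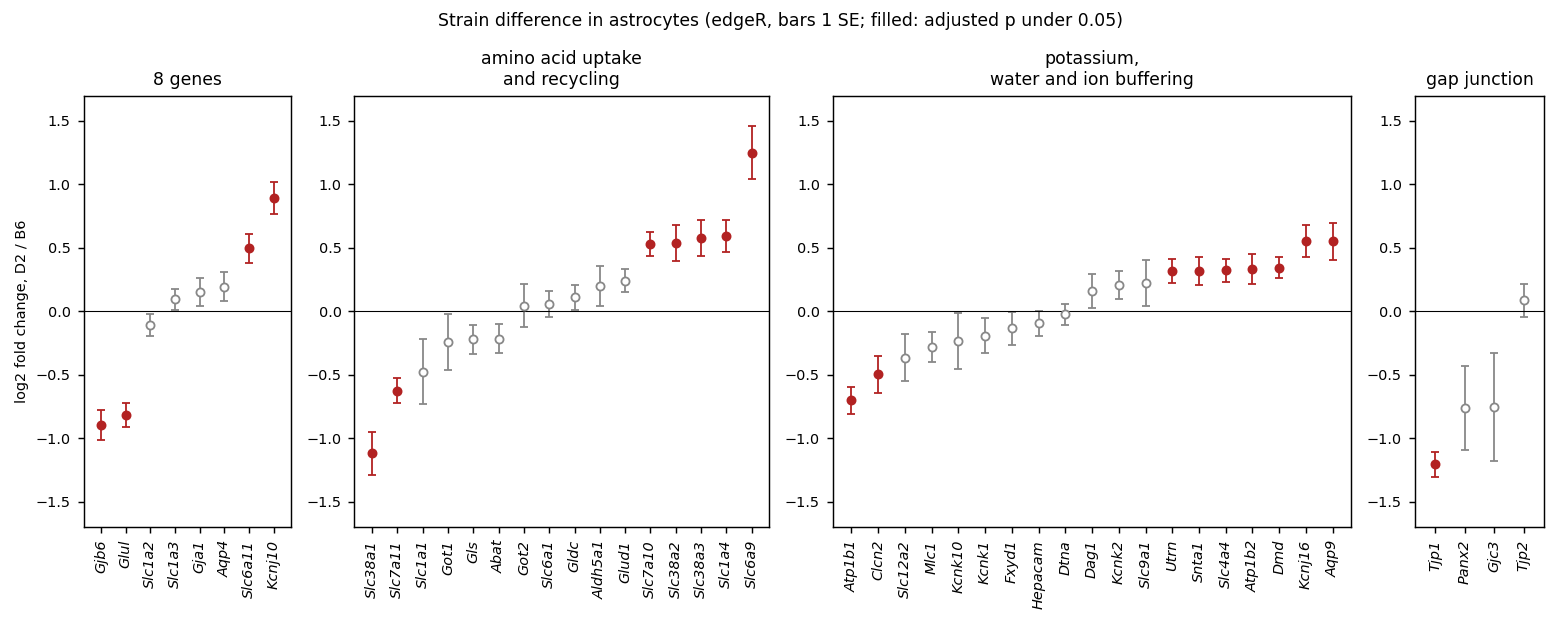
Strain difference in astrocytes (log2 fold change D2 over B6, bars 1 SE) of the 8 genes and the tested genes of 3 pathway lists, less 1 of the buffering list, filled where the adjusted p was under 0.05. Calls lie in both directions among the 8 genes and in the uptake and buffering lists, and Tjp1 is the 1 call in the gap junction list.

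Over all cell types there were 104 pairs of a gene and a type, 83 with enough counts to be tested. Of these 12 were called, 3 higher and 9 lower in D2, and 8 of them lay outside astrocytes. Of all genes, 25.6% were called in Exc-DG, 21.9% in Exc-CA3, 26% in Exc-CA1-Galntl6, 20.2% in Exc-CA1-Fras1, 9.4% in Exc-CA1-Camk2d, 18.6% in Exc-ENT, 12.5% in Exc-Gpc6 and 3.3% in Exc-Cdh12. The share was 5.82% in NN-VLMC, 11.3% in NN-OPC, 14.2% in NN-ODC and 8.13% in NN-MGC. DESeq2 called 5 pairs, those of astrocytes and Glul in NN-ODC.

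**Figure D5:**
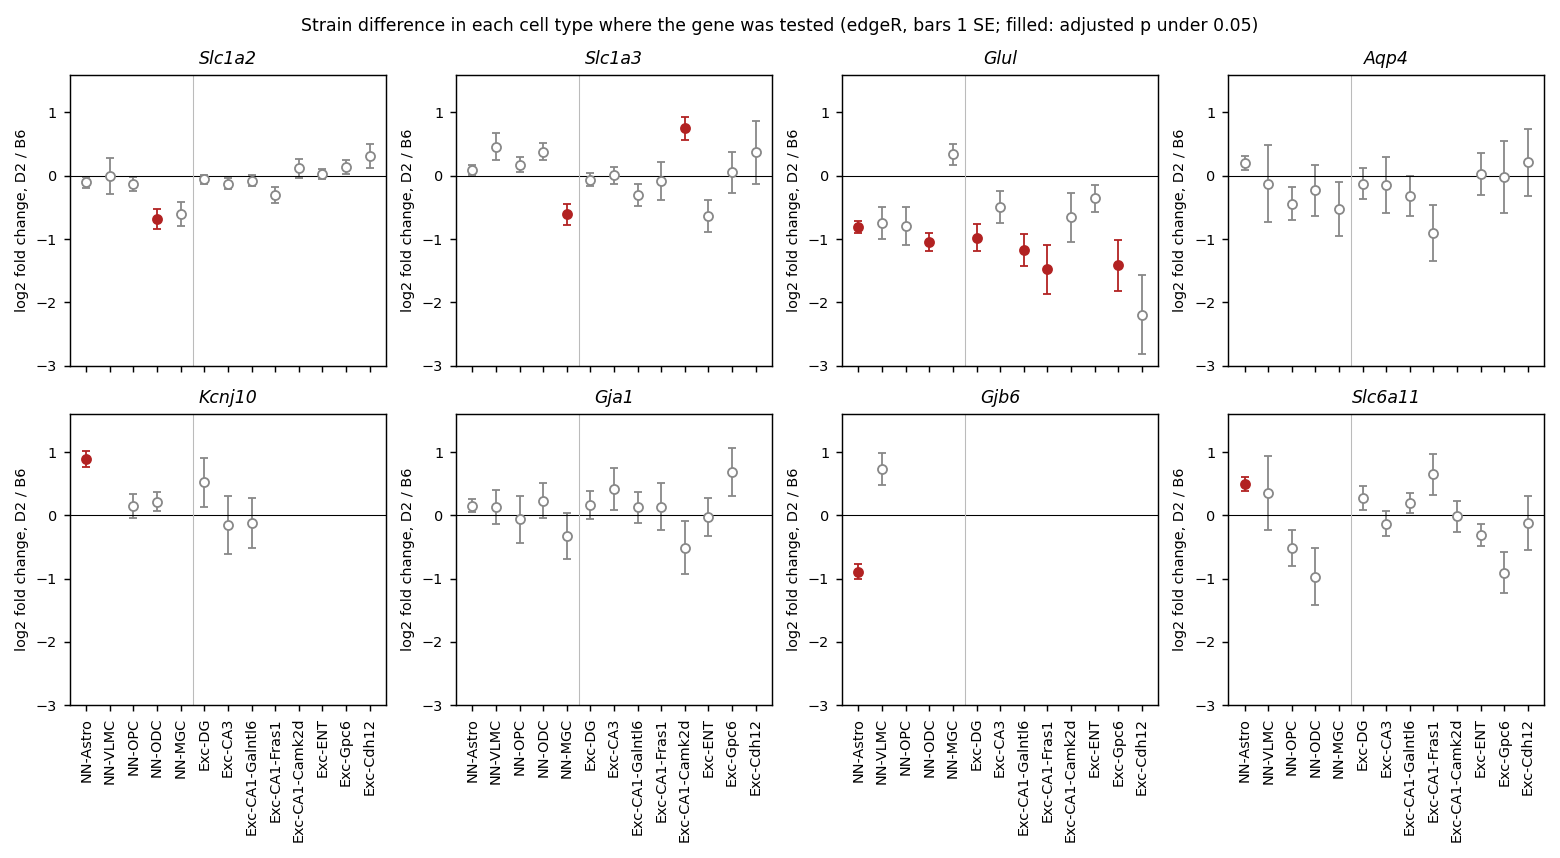
Log2 fold change D2 over B6 of each gene in each cell type where it could be tested (bars 1 SE, filled where the adjusted p was under 0.05, non-neuronal types left of the grey line). Glul lies below 0 in 12 of 13 types, and Gjb6 lies below 0 in astrocytes and above 0 in NN-VLMC.

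Glul was called as lower in D2 in 6 of 13 types and had a negative fold change in 12. In NN-ODC it stood at 165 and 155 CPM in B6 and 70.4 and 77.7 CPM in D2 (−1.05 ± 0.15, adjusted p = 1.81e-05). In Exc-DG it stood at 7.51 and 6.83 CPM in B6 and 4.02 and 3.54 CPM in D2 (−0.98 ± 0.22, adjusted p = 0.00403), and in Exc-CA1-Galntl6 at 8.67 and 7.36 CPM in B6 and 3.86 and 3.57 CPM in D2 (−1.17 ± 0.25, adjusted p = 0.00162). These neuronal levels were a few percent of those in astrocytes, as were those of the astrocyte markers, and whether they are neuronal RNA was not tested.

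Glul was also called in Exc-CA1-Fras1 (−1.48 ± 0.39, adjusted p = 0.00795) and Exc-Gpc6 (−1.42 ± 0.40, adjusted p = 0.0167), on 18 and 17 counts in D2. Both calls were lost without B6 library 3 (adjusted p = 0.0615 and 0.225) and without D2 library 2 (0.122 and 0.223). NN-MGC was the type with a positive sign, at 176 and 185 CPM in B6 and 224 and 229 CPM in D2 (0.34 ± 0.16, adjusted p = 0.230).

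The glutamate transporters had the other 3 calls outside astrocytes. Slc1a2 in NN-ODC stood at 139 and 181 CPM in B6 and 107 and 84.7 CPM in D2 (−0.69 ± 0.16, adjusted p = 0.00348), and the call was lost without B6 library 3 (0.0510) or D2 library 3 (0.0659). Slc1a3 in NN-MGC stood at 318 and 257 CPM in B6 and 200.2 and 174 CPM in D2 (−0.61 ± 0.17, adjusted p = 0.0230), and the call was lost without B6 library 2 (0.248) or D2 library 3 (0.241). Slc1a3 in Exc-CA1-Camk2d was higher in D2, at 24.3 and 22.0 CPM in B6 and 35.7 and 45.6 CPM in D2 (0.75 ± 0.18, adjusted p = 0.0197), and the call was lost without D2 library 2 (0.139) or 3 (0.279).

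Whether the strain difference varied over the cell types was tested in 1 fit of all 52 columns with library and cell type as terms. Its 24 residual degrees of freedom come from columns of the same 4 libraries, 2 per strain. Its p-values measure how replicate libraries differ from type to type, and the columns of 1 library are not independent pools of animals. Of 18908 genes 15.5% varied. Of the 8 genes 5 varied, with adjusted p = 1.22e-05 for Glul, 2.85e-04 for Slc1a3, 4.44e-04 for Gjb6, 6.58e-04 for Slc6a11 and 0.00553 for Kcnj10. Slc1a2 (0.222), Aqp4 (0.656) and Gja1 (0.840) did not pass. Without D2 library 3, Slc1a3 (0.0632) and Slc6a11 (0.0889) did not pass either. Slc1a2 did pass without B6 library 2 (1.28e-05) or 3 (0.00793), and Aqp4 without B6 library 3 (0.0236).

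Single cell types were set against astrocytes in the same fit. The strain difference of Gjb6 was 1.63 ± 0.24 log2 units greater in NN-VLMC than in astrocytes (adjusted p = 2.26e-06), where 1.11% of genes differed. In NN-VLMC Gjb6 stood at 225 and 154 CPM in B6 and 278 and 328 CPM in D2, which did not pass on its own (0.74 ± 0.25, adjusted p = 0.0697). The same contrast for Gja1, the other connexin, was −0.07 ± 0.20. For Glul the difference was 1.16 ± 0.19 greater in NN-MGC than in astrocytes (adjusted p = 2.14e-05), where 1.59% of genes differed. Both calls were kept on leaving out each library in turn.

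For Kcnj10 the difference was smaller in NN-ODC than in astrocytes (−0.69 ± 0.19, adjusted p = 0.0259), where 3.18% of genes differed. In NN-ODC Kcnj10 stood at 87.4 and 83.3 CPM in B6 and 91.4 and 98.0 CPM in D2. The call was lost without B6 library 2 (0.214) or D2 library 3 (0.296).

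For Slc6a11 the log2 fold change was below that of astrocytes in NN-OPC (−1.07 ± 0.30, adjusted p = 0.0481), Exc-ENT (−0.85 ± 0.21, adjusted p = 0.00877) and Exc-Gpc6 (−1.45 ± 0.35, adjusted p = 0.00586), where 1.64%, 3.95% and 3.2% of genes differed. Fitted alone, the fold changes in these types were −0.52, −0.31 and −0.91. Their sign was opposite to the 0.50 of astrocytes, and none was called. In Exc-ENT Slc6a11 stood at 24.0 and 25.3 CPM in B6 and 19.4 and 23.3 CPM in D2. All 3 calls were lost without B6 library 3 (adjusted p = 0.529, 0.148 and 0.306) and without D2 library 3 (0.688, 0.120 and 0.188), and that in Exc-ENT also without D2 library 2 (0.0545).

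Accessibility was compared between strains in the astrocyte sums. Of 39351 peaks edgeR called 0.198%. Of the 94 peaks at the 8 genes 56 were tested and 0 were called by edgeR. At an unadjusted p under 0.05 there were 3 of these 56, beside 2488 of the 39351 peaks. DESeq2 called 0 too, with 1 of 93 at an unadjusted p under 0.05, beside 411 of its 193274 peaks. The start peak of Glul held 37 and 52 counts in B6 and 67 and 84 counts in D2 (log2 fold change 0.05 ± 0.20, 95% interval −0.34 to 0.45). That of Gjb6 held 14 and 11 counts in B6 and 20 and 18 counts in D2 (interval −0.88 to 0.67), that of Kcnj10 20 and 23 counts in B6 and 27 and 44 counts in D2 (interval −0.56 to 0.58) and that of Slc6a11 6 and 7 counts in B6 and 14 and 18 counts in D2 (interval −0.38 to 1.54).

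The Kcnj10 peak 1.7 kb from the start, the first of the peak sequences shown, held 17 and 23 counts in B6 and 41 and 58 counts in D2 (0.60 ± 0.27, adjusted p = 0.721). The one at 9.0 kb held 15 and 24 counts in B6 and 38 and 52 counts in D2 (0.50 ± 0.28, adjusted p = 0.805). The Slc6a11 peak at 27.8 kb held 18 and 24 counts in B6 and 35 and 39 counts in D2 (0.11 ± 0.29, adjusted p = 0.980). Peak and RNA fold changes are different measures, and how the start peaks relate to the RNA differences was not tested.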

How the data were processed

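Nuclei of ventral hippocampus were profiled by 10x snRNA-seq and snATAC-seq. The authors counted RNA reads, introns included, with Cell Ranger 6.0.2 and accessibility with Cell Ranger ATAC 2.0.0, on mm10 for B6 and mm10 with strain variants substituted for D2. The annotation release is not given in the sources used here. They removed doublets, clustered nuclei in Seurat 4.0.5, called peaks per sample, merged them, and passed RNA labels to the accessibility nuclei. The deposited values are raw counts summed per cell type and library.

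Column names carry library numbers that differ from the labels' replicate numbers, so columns were placed in strains only. 16 RNA and 24 accessibility columns were not used, which left 13 RNA cell types, all non-neuronal or excitatory. Symbols with at least 1 count in each strain were kept (24634 of 33902), because 9140 had counts in 1 strain only. The strains may have been counted with different gene lists, which would also bear on genes that overlap others, and this was not tested. CPM is relative to the total over kept symbols. Strains were compared in each cell type with edgeR 4.0.16 in R 4.3.3 (TMM, filterByExpr, quasi-likelihood F test, Benjamini-Hochberg, threshold 0.05), in accessibility with peaks of at least 10 counts. SEs are the log2 fold change over the square root of F, and intervals are 1.96 SE. DESeq2 1.42.0 and other filters, scalings and libraries were tried as alternatives, and scripts were tested on simulated data. Named list genes are at most 5 per direction, called, at 20 CPM or more, and 1 gene of the lists is not reported here by name. The members and lists were chosen with earlier results of these data known. Replicate libraries differed by more than sampling noise, and depth is given with the results.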

Additional observations from a re-analysis of the deposited data

Results flagged for a closer look

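The strain difference varied between cell types for 5 of the 8 genes, by a test of the variation itself over 13 types (edgeR, Benjamini-Hochberg). By the same test it varied for 15.5% of 18908 genes. The units of the test were columns of the same 4 libraries. The adjusted p was 1.22e-05 for Glul, whose log2 fold change ran from −2.20 in Exc-Cdh12 to 0.34 in NN-MGC. Neither end was called on its own, and that in Exc-Cdh12 rested on 18 counts in B6 and 5 in D2 (adjusted p = 0.0830). The adjusted p was 2.85e-04 for Slc1a3, which ran from −0.63 in Exc-ENT, not called on its own (adjusted p = 0.0878), to 0.75 in Exc-CA1-Camk2d. It was 4.44e-04 for Gjb6, which could be tested alone in astrocytes and NN-VLMC and had opposite signs there. It was 6.58e-04 for Slc6a11 and 0.00553 for Kcnj10, both of which were called as higher in D2 in astrocytes and in no other type tested. Alone, Slc6a11 could be tested in 12 of the 13 types and Kcnj10 in 6. What underlies these differences was not tested.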

How the results depend on the processing

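Leaving out 1 library leaves a strain with 1, which is assumed to vary like the other strain's. The number of genes called in astrocytes was 2581 by edgeR, 1011 by DESeq2 and 1651 to 2327 in fits without 1 library, the lowest without D2 library 3. These are totals of separate fits, and the genes they share were not counted. Of the 8 genes, 4 were called in astrocytes by every other filter, scaling and test tried on all libraries, and 3 to 6 without 1 library. Over all types 12 pairs were called, 5 by DESeq2 and 9 to 17 without 1 library. The strain difference varied over types for 5 genes, for Slc1a2 too without the filter on low counts (adjusted p = 1.12e-05), and for 3 to 7 without 1 library. Slc1a2 in astrocytes reversed to 0.0280 without B6 library 2 (adjusted p = 0.823; range −0.23 to 0.03), and Gja1 to −0.0513 without B6 library 3 (adjusted p = 0.796; range −0.05 to 0.40). The pairwise differences from astrocytes without 1 library were added after seeing the data, and 9 of 24 lost the call. On TMM-scaled totals the ratio of astrocytes to the next type was 3.81 for Slc1a3, 2.47 for Glul and 4.08 for Gja1. Per nucleus it was 3.70 for Slc1a2, 6.16 for Aqp4 and 4.79 for Slc6a11. The astrocyte share per nucleus weighs every cell type the same, whatever its nuclei, so it is another measure than the share of counts. Per nucleus the astrocyte shares were 51.8% (Slc1a2), 54.8% (Slc1a3), 40.3% (Glul), 58.1% (Aqp4), 34.4% (Kcnj10), 58.5% (Gja1), 28.2% (Gjb6) and 44.3% (Slc6a11). The number of peaks called in astrocytes, again in separate fits over their own peaks, was 78 by edgeR, 6 by DESeq2, 43 without the count minimum and 27 to 52 without 1 library. Calls at the 8 genes were 0 with DESeq2, without each library and with 10 kb on either side. The cause of these changes was not tested.

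With the library number as a replicate block, 2800 genes, 4 of the 8 genes, 13 pairs and 7 peaks were called. The numbers share no stated animal or batch, and the difference of library 2 from 3 in B6 and in D2 had r = −0.0144 over 13777 genes.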
